A study of Homo sapiens with 4 samples.

Results

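Chemokines are small secreted proteins that guide leukocytes along a gradient by binding seven-pass receptors on their surface. Epithelial cells secrete them when exposed to bacterial products, TNF or IL-1, largely through NF-κB, a transcription factor family that binds κB motifs in front of their genes. In the colon, CXCL1, CXCL2, CXCL3, CXCL5 and CXCL8 attract neutrophils, CCL20 attracts dendritic cells and lymphocytes that carry CCR6, and CXCL10, CXCL16, CCL2 and CCL3 attract T cells or monocytes. The expression of these 10 chemokine genes was analysed in colon cancer cells treated with the DNA-demethylating agent DAC (decitabine) or with its prodrugs OR-2003 and OR-2100. The 10 were chosen by name, as chemokines that inflamed epithelium secretes, out of 25006 named genes on the array. Earlier results of these data were known when they were chosen. All 13 probes that mapped to them through the RefSeq accession of the array design were used.

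The cells were HML58-3, a derivative of the colon cancer line HCT116 that was engineered to carry a luciferase reporter under a methylated promoter, so that every value comes from 1 cell line. The 4 groups were mock-treated cells and cells given DAC, OR-2003 or OR-2100 at 1 μM. The medium with drug was given on day 1 and RNA was taken on day 5. Each group was measured on 1 one-colour Agilent array, so that no difference has a replicate check, no test between conditions was run and no p-value is given. DAC is a cytidine analogue that is built into DNA and traps DNA methyltransferases, and OR-2003 and OR-2100 release it.

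The deposited values are background-corrected spot intensities from the scanner software. A level here is log2 intensity on a scale where 0 marks the 75th percentile of an array's gene probes, and a difference is the level with a drug minus the level of the same probe on the mock array. Genes at least 2-fold above mock that reached a level of -1 with the drug were called induced, and genes at least 2-fold lower from a mock level of -1 or more were called reduced. Of 58201 gene probes, 31601 to 33282 were well above background on each array, and none was saturated. The slope of the spike-in controls, a measure of linearity, was 0.899 on the mock array and 0.913 to 0.955 on the others. The epithelial markers EPCAM, KRT8, KRT18, KRT19, CDH1 and CLDN4 were well above background on all 4 arrays.

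The sequences in front of the chemokine genes are shown first, with the κB element that the neutrophil attractants share marked. They are the 150 bases before the start of each gene in RefSeq, build GRCh38.p14, 5′ to 3′ on the strand of the gene, and the array design was annotated on another build. Capitals mark matches to the κB consensus, to the core GGAATTTCC, which overlaps it in CXCL1, CXCL2, CXCL3 and CXCL5, and to TATAAA. CXCL1 lies at chr4:73869243-73869392 (plus strand), CXCL2 at chr4:74099196-74099345 (minus strand), CXCL3 at chr4:74038690-74038839 (minus strand), CXCL5 at chr4:73998678-73998827 (minus strand), CXCL8 at chr4:73740419-73740568 (plus strand), CXCL10 at chr4:76023498-76023647 (minus strand) and CCL20 at chr2:227813692-227813841 (plus strand).
CXCL1: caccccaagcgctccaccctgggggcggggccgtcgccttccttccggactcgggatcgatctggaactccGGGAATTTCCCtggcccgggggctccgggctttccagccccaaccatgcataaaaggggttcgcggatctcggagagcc
CXCL2: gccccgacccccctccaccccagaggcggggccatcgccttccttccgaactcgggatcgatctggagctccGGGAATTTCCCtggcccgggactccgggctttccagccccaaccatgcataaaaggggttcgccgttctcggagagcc
CXCL3: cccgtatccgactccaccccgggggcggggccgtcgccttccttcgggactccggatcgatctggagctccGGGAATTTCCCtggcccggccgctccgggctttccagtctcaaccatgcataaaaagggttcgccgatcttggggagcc
CXCL5: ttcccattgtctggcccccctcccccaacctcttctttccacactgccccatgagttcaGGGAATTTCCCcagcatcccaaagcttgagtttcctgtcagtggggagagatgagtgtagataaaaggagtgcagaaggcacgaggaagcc
CXCL8: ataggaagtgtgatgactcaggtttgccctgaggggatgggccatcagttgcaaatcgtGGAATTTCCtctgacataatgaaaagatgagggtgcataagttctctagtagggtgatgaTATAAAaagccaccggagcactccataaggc
CXCL10: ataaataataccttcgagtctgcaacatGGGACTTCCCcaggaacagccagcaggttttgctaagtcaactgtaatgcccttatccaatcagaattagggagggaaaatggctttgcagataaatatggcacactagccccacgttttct
CCL20: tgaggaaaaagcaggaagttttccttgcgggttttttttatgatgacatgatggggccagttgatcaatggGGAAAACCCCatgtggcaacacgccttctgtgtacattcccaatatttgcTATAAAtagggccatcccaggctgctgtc

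The core GGAATTTCC, searched on both strands within 250 bases before the start, began 78, 77 and 78 bases before the start of CXCL1, CXCL2 and CXCL3, 90 before that of CXCL5 and 91 before that of CXCL8. It is present in 0.413% of 35116 promoters. CXCL10 holds it 176 bases before its start on the opposite strand, outside the stretch shown. The κB consensus, which 5.21% of promoters hold, was also found in CCL20, 79 bases before the start on the opposite strand, and in CXCL10, 122 and 177 bases before it. TATAAA, present in 10.7% of promoters, stood 31 bases before the start of CXCL8 and 29 before that of CCL20. Of 3 entries for CCL3, none holds the core or the consensus and 1 holds TATAAA. The matches describe letters only, and binding was not measured.

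The promoters also differed in CpG sites, the sites that DNA methyltransferases act on. The 250 bases before the start held 18 CpG sites in CXCL1, 20 in CXCL2 and 19 in CXCL3, against 6 in CXCL5, 4 in CXCL8, 3 in CXCL10 and CCL20, and 2 to 4 in the entries for CCL3. The median over all promoters was 11, and genes induced by the drugs stood on both sides of it. The stretches shown for CXCL1, CXCL2 and CXCL3 were 86.1% to 88.7% identical to each other after alignment. CXCL5 was 49.4% to 50% identical to them, little above the 39.0% to 49.1% of all other pairs shown. The methylation of the CpG sites was not analysed here.

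Among the 10 chemokines, 5 were induced by each of the 3 drugs, and they were the same 5 genes: CXCL1, CXCL2, CXCL8, CCL3 and CCL20. Of all named genes, 5.77% were induced by DAC, 5.89% by OR-2003, 5.81% by OR-2100 and 5.27% by all 3. Since the 10 were chosen with earlier results of these data known, the shares are given as description and not as a test. CXCL3 was more than 2-fold higher with each drug but stayed under the level of -1, CXCL5 and CXCL16 were expressed at nearly the same level on all 4 arrays, and CXCL10 and CCL2 were not well above background on any array. No chemokine of the 10 was reduced by any drug. The mock level reached -1, which that call needs, in 5 of them, and 5.96%, 6.05% and 6.82% of named genes were reduced by DAC, OR-2003 and OR-2100 and 5.21% by all 3, so that a count of 0 is near the share over the array. The median difference of the 10 genes was 2.08 with DAC, 2.09 with OR-2003 and 2.39 with OR-2100 on the log2 scale, beside the medians -0.11, -0.09 and -0.23 over all named genes. In bulk RNA, more cells that express a gene and more RNA of it per cell cannot be told apart. The 3 comparisons share the mock array, so that a low or high spot there moves all of them. Scaling on the brighter probes, those well above background on all arrays, left 2, 2 and 3 genes induced, since the level of -1 then lies among brighter genes.

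**Figure D1:**
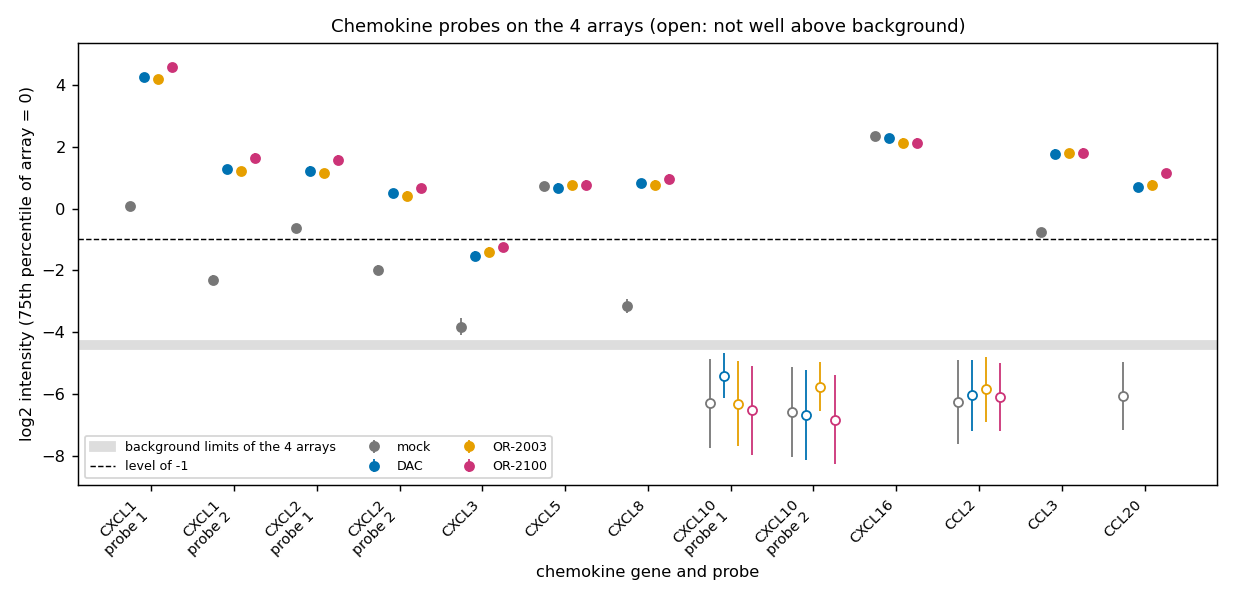
Level of each of the 13 chemokine probes (log2 intensity, 75th percentile of the array at 0) on the mock, DAC, OR-2003 and OR-2100 arrays, with bars for the error given by the scanner software and open symbols for probes not well above background. The mock array lies far under the 3 drug arrays for CXCL1, CXCL2, CXCL3, CXCL8, CCL3 and CCL20, and at the same height for CXCL5 and CXCL16.

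The neutrophil attractants act on CXCR2, some of them also on CXCR1, and CXCL1 is one of those that epithelium secretes. CXCL1 (probe A_23_P7144) had a level of 0.08 on the mock array, 4.25 with DAC, 4.18 with OR-2003 and 4.57 with OR-2100. It was therefore expressed without drug and was 18.1-fold, 17.2-fold and 22.5-fold higher with the drugs. A second probe for CXCL1 (A_33_P3330264) gave -2.31 without drug and then 1.26, 1.20 and 1.65, in the order DAC, OR-2003, OR-2100, which is 11.9-fold, 11.4-fold and 15.5-fold higher. Both probes put mock lowest and OR-2100 highest.

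CXCL2 encodes a close relative of CXCL1. Its level (probe A_23_P315364) was -0.63 on the mock array, 1.22 with DAC, 1.14 with OR-2003 and 1.58 with OR-2100, or 3.62-fold, 3.41-fold and 4.64-fold higher with the drugs. Its second probe (A_24_P257416) gave -2.0 without drug and 0.49, 0.42 and 0.66 with the drugs, or 5.62-fold, 5.34-fold and 6.33-fold. The probes differ in size of the response and share its order, with OR-2100 highest and OR-2003 lowest of the drugs.

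CXCL3, the third of these relatives, was dim. Its level was -3.82 on the mock array, -1.52 with DAC, -1.40 with OR-2003 and -1.26 with OR-2100, all well above background. It was 4.93-fold, 5.35-fold and 5.92-fold higher with the drugs, and was not called because it stayed under -1. With normexp, another background correction that lifts dim spots, its log2 difference dropped from 2.30, 2.42 and 2.56 to 0.70, 0.72 and 0.84, under 2-fold. CXCL1, CXCL2 and CXCL3 are closely related in sequence, and binding of 1 transcript to the probe of another was not tested.

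CXCL8 (interleukin-8), the main neutrophil attractant of human epithelium, was near the lower end of detection without drug. The level was -3.14 on the mock array, 0.82 with DAC, 0.76 with OR-2003 and 0.96 with OR-2100, or 15.6-fold, 15.0-fold and 17.1-fold higher. With all 3 drugs it lay above 0, which marks the 75th percentile of the probes. The log2 difference of 3.96, 3.91 and 4.10 dropped to 2.0, 1.99 and 2.14 with normexp.

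CXCL5, the remaining neutrophil attractant among the 10, stood apart. Its level was 0.72 on the mock array, 0.67 with DAC, 0.75 with OR-2003 and 0.76 with OR-2100. The differences of -0.05, 0.03 and 0.04 were smaller than their error of 0.20 given by the scanner software, and their sign turned with the scaling. CXCL5 was thus already expressed without drug. Its promoter carries the same κB core as CXCL1, CXCL2, CXCL3 and CXCL8, and the part of that core in the response was not tested.

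Between CXCL8 and CXCL2 on chromosome 4, the RefSeq table orders the protein-coding genes as CXCL8, CXCL6, PF4V1, CXCL1, PF4, PPBP, CXCL5, CXCL3 and CXCL2. The 4 neutrophil attractants with large differences were not contiguous. CXCL6, PF4V1 and PPBP, further CXC chemokines, were not well above background on any array. PF4, platelet factor 4, was not well above background without drug and reached -3.30, -2.88 and -3.07 with the drugs, at least 1.98-fold, 2.65-fold and 2.33-fold higher.

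**Figure D2:**
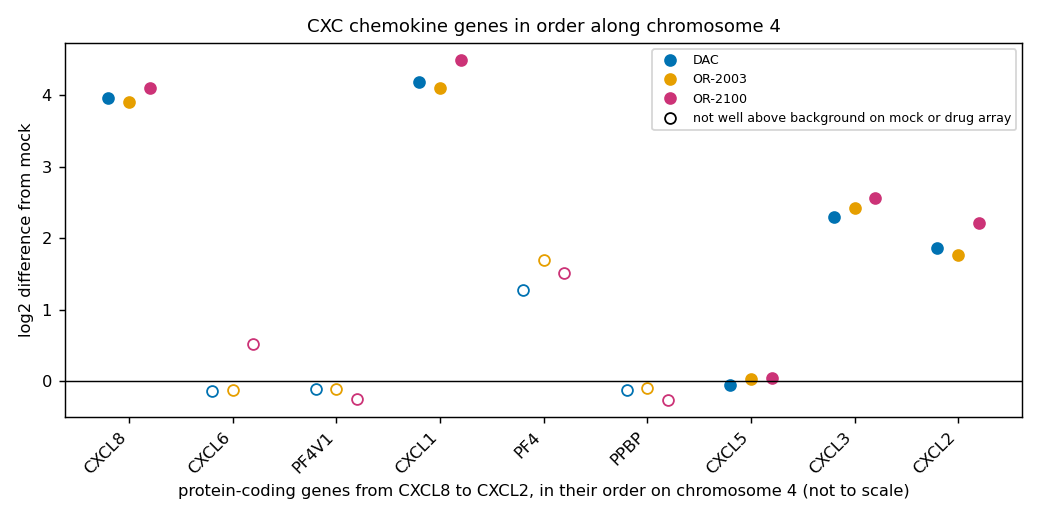
Log2 difference from mock (y axis) for the protein-coding genes from CXCL8 to CXCL2 in their order on chromosome 4 (x axis, not to scale), with 1 point for each drug and open points where the mock or drug array was not well above background. CXCL5 at -0.05 to 0.04 lies next to CXCL3 at 2.30 to 2.56.

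Among the attractants of other leukocytes, CCL20, the ligand of CCR6, went from undetected to well expressed. Without drug its level was -6.07, not well above background, and it was 0.70 with DAC, 0.78 with OR-2003 and 1.14 with OR-2100. Measured against the background limit of the mock array, it was at least 31.6-fold, 33.4-fold and 43.0-fold higher. These bounds were above the folds of the chemokines with a measured mock level. With normexp the log2 difference of CCL20 was 2.44, 2.48 and 2.75, under these bounds and under the 3.64, 3.61 and 3.98 of CXCL1 on that scale.

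CCL3 (MIP-1α), which attracts monocytes and T cells, was induced to nearly the same level by each drug. The level was -0.76 on the mock array, 1.77 with DAC, 1.79 with OR-2003 and 1.81 with OR-2100, or 5.79-fold, 5.85-fold and 5.93-fold higher. CCL3 has near-identical copies in the genome, and whether the probe tells them apart was not tested.

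CXCL16, a membrane-bound ligand of CXCR6 that the protease ADAM10 can release, was expressed on every array. The level was 2.33 on the mock array, 2.28 with DAC and 2.13 with both prodrugs. The differences of -0.05, -0.21 and -0.21 were within or close to their error of 0.20. ADAM10 itself was at 1.46 without drug and at 2.05, 2.01 and 1.94 with the drugs, under 2-fold higher.

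CXCL10, an interferon-inducible ligand of CXCR3, was not well above background with either of its 2 probes. The levels of one (A_33_P3343175) were -6.30, -5.41, -6.31 and -6.53 on the mock, DAC, OR-2003 and OR-2100 arrays, and those of the other (A_24_P303091) were -6.57, -6.68, -5.76 and -6.82. CCL2 (MCP-1), the main monocyte attractant, was measured by 10 spots of 1 probe, of which 0 were well above background on any array, with levels of -6.26, -6.04, -5.85 and -6.10. The background limits of the arrays lay between -4.55 and -4.29, so that expression of both genes was not detectable at this signal, and no fold is given.

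**Figure D3:**
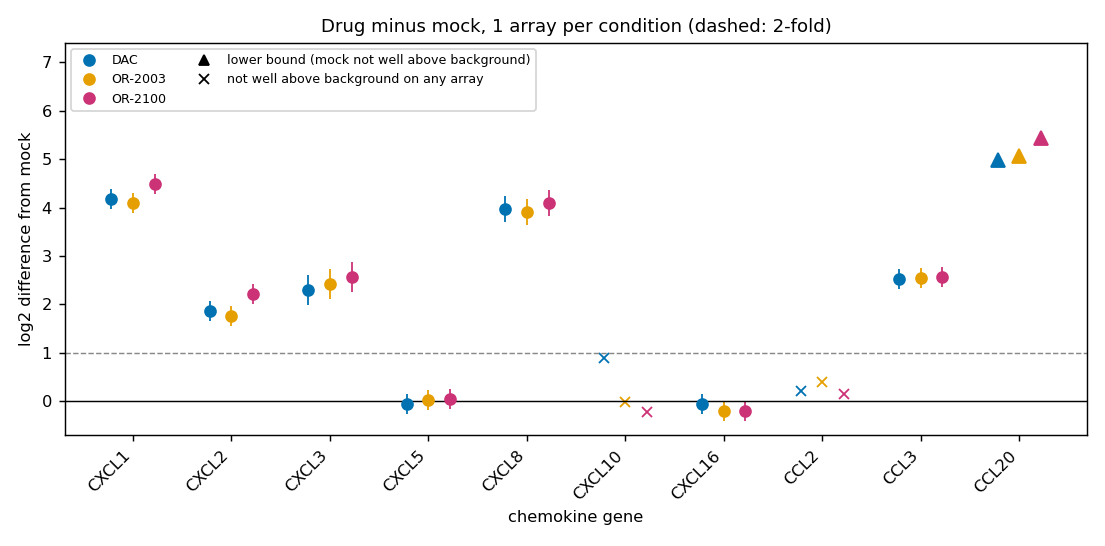
Log2 difference from mock (y axis) of the 10 chemokine genes (x axis) for each drug, with bars for the error given by the scanner software, triangles for lower bounds and crosses for genes not well above background on any array. Of the 10, 6 lie above the dashed line of 2-fold with all 3 drugs, and CXCL5 and CXCL16 lie within 0.21 of 0.

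The 3 drugs were compared in 3 pairs at the same dose and time, over the 8 chemokines that were well above background with every drug. No gene differed 2-fold in any pair. OR-2003 differed from DAC by -0.16 to 0.12 on the log2 scale, with 4 genes higher and 4 lower, and all 8 lay between the 5th and 95th percentiles of all probes, -0.28 and 0.39. No test of these differences was possible with 1 array each, and differences of this size do not show that the compounds act alike.

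OR-2100 gave the highest level of the 3 drugs for CXCL1, CXCL2, CXCL3, CXCL8 and CCL20. It was also highest for CXCL5 and CCL3, by 0.01 to 0.09 on the log2 scale. Above DAC it was higher by 0.32 for CXCL1, 0.36 for CXCL2, 0.26 for CXCL3, 0.13 for CXCL8 and 0.45 for CCL20, and by 0.03 for CCL3. Above OR-2003 the differences were 0.39 for CXCL1, 0.45 for CXCL2, 0.14 for CXCL3, 0.19 for CXCL8 and 0.37 for CCL20. This order held for these 5 genes, and for CXCL5, under every scaling and background correction tried. The second probes gave the same sign for CXCL1 and CXCL2.

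The differences of CXCL1, CXCL2 and CCL20 lay toward the upper end of the spread over the array, and those of CXCL3 and CXCL8 lay lower. CXCL3 and CXCL8 were higher than 88.9% and 78.3% of probes in OR-2100 minus DAC. In OR-2100 minus OR-2003 they were higher than 81.0% and 85.8%. CXCL1, CXCL2 and CCL20 were higher than 91.7%, 93.5% and 96.1% of probes in OR-2100 minus DAC, and higher than 95.4%, 96.6% and 94.7% in OR-2100 minus OR-2003. From OR-2100 minus DAC, the 5th and 95th percentiles of all probes were -0.38 and 0.40, and CCL20 lay above them. From OR-2100 minus OR-2003 they were -0.44 and 0.38, and CXCL1 and CXCL2 lay above them. The error given by the scanner software was 0.20 to 0.21 for each difference, and the median SD between repeated spots of 1 probe was 0.09, which covers the array surface and not the culture. CXCL16 was lower with both prodrugs than with DAC, with log2 differences of -0.16, which is within that error.

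**Figure D4:**
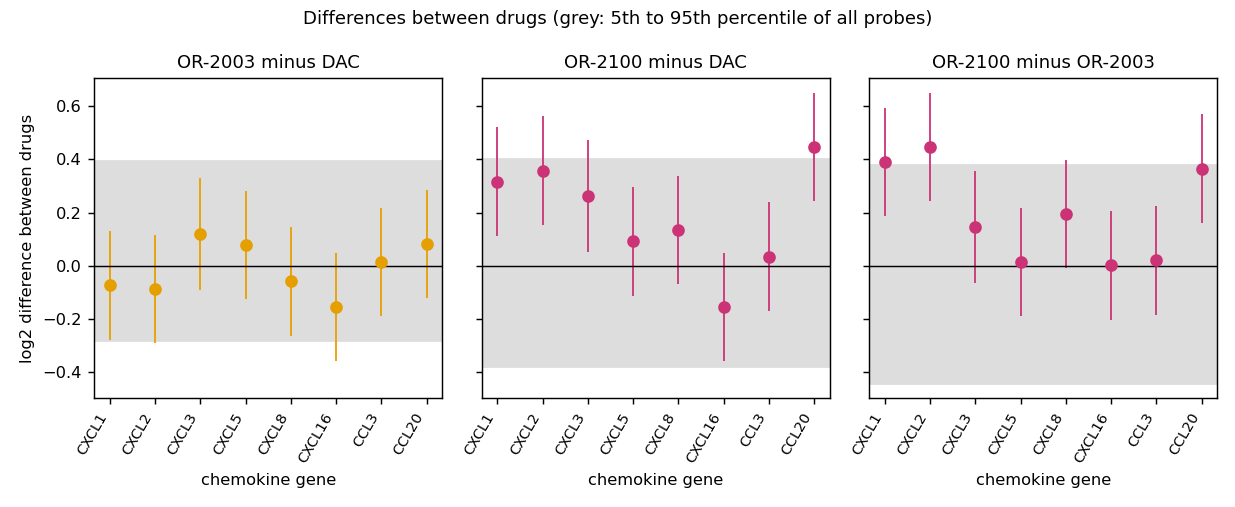
Log2 difference between drugs (y axis) for the 8 chemokines measured with every drug (x axis), 1 panel per pair, with bars for the error given by the scanner software and grey bands for the 5th to 95th percentile of all probes. CCL20 lies above the band in OR-2100 minus DAC, at 0.45, and CXCL1 and CXCL2 in OR-2100 minus OR-2003, at 0.39 and 0.45.

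Most of the other chemokine ligands remained dim. Of 34 listed, 32 had a probe, 14 of these were not well above background on any array, and 2 were induced by all 3 drugs, CCL26 and XCL1. CCL26 (eotaxin-3), which attracts eosinophils, was at -3.18 without drug and at -0.26 (DAC), -0.20 (OR-2003) and -0.39 (OR-2100), the order kept for all such values that follow. XCL1 (lymphotactin) was at least 25.8-fold, 23.9-fold and 30.9-fold higher, and whether its probe also takes up its paralog XCL2 was not tested. None of the ligands was reduced, but nearly all had a mock level under -1, from which that call is not made. Of all named genes, 5.27% were induced and 5.21% reduced by all 3 drugs, so that 2 induced of 32 is near the share over the array. The median difference of the ligands was -0.04, -0.06 and -0.22.

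The other interferon-inducible ligands of CXCR3, which share that receptor with CXCL10, were at the edge of detection. CXCL11 was at -6.49 without drug and at -4.55, -3.90 and -3.32 with the drugs, well above background with OR-2003 and OR-2100. CXCL9 was at -6.60 and then -4.74, -4.82 and -4.36, well above background with OR-2100 alone. CCL5 (RANTES), a T cell attractant, was not well above background without drug, at least 6.04-fold, 6.17-fold and 6.0-fold higher at levels of -1.69, -1.66 and -1.70 with the drugs, and was therefore not called.

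Of 22 chemokine receptors, 11 were not well above background on any array and 1, CXCR4, the receptor of CXCL12, was induced by all 3 drugs. Its level was -1.85 without drug and 0.07, 0.29 and 0.14 with the drugs. All 3 drugs induced 5.27% of all named genes, so that 1 of 22 is near the share over the array. Over the receptors, the median difference was -0.06, -0.01 and -0.25. None was reduced, but most had a mock level under -1, from which that call is not made. CXCR1 and CXCR2, the receptors of the neutrophil attractants, were not well above background on any array, and CCR6, the receptor of CCL20, was at 1.77 without drug and 1.24, 1.30 and 1.5 with the drugs. These 3 receptors were singled out after their values had been seen.

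Genes that process or hold chemokines moved in both directions. Of 12, 4 were induced by all 3 drugs, namely MMP1, MMP9, SDC1 and SDC4, and 3 were reduced, namely DPP4, MMP7 and CD44. The shares over all named genes were 5.27% induced and 5.21% reduced. MMP1, a collagenase, was at -3.52 without drug and 0.99, 1.19 and 1.31 with the drugs. MMP9, which trims CXCL8, was at 0.32 and then 3.13, 3.13 and 3.12. MMP7, which releases syndecan-1 with bound chemokine from epithelium, was at -0.83 and then -2.77, -2.56 and -3.22. CD44, a hyaluronan receptor, was at 7.14 and then 5.18, 5.27 and 5.28. Over the 12, the median difference was 0.69, 0.32 and 0.23.

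Of 29 cytokines and receptors that induce chemokines, TNF, IL17RA, IL6R and TLR2 were induced by all 3 drugs. TNFRSF1A, a TNF receptor, was reduced by all 3. The shares over all named genes were 5.27% induced and 5.21% reduced. The probes of IL17RA disagreed, with differences of 1.17, 1.23 and 1.24 for the brightest and of -0.57 to -0.14 for the others. TNF was at -5.24 without drug, not well above background, and at 1.14, 1.13 and 1.34 with the drugs, at least 43.0-fold, 42.6-fold and 49.4-fold higher. TNFRSF1B, another TNF receptor, was not well above background without drug and reached -2.02, -2.01 and -2.11, and was therefore not called. Its second probe differed from mock by -0.43 to 0.23. TNFRSF1B was singled out after its values had been seen. TLR2, a receptor for bacterial lipoproteins, was at -6.54 without drug, not well above background, and at -0.69, -0.60 and -0.61 with the drugs. IL1B was not well above background on any array. IL1A was at -5.12 without drug and -4.32, -4.59 and -3.67 with the drugs, well above background with DAC and OR-2100 only. Over the 29, the median difference was -0.04, 0.07 and 0.18.

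The genes of transcriptional control were all well above background. Of 28 measured, 8 were induced by all 3 drugs and none was reduced, beside 5.27% and 5.21% of all named genes. Among the 8 were NFKB2, RELB, NFKBIA, NFKBIE, TNFAIP3, ATF3 and IRF7, of which the first 5 belong to NF-κB or restrain it and are known targets of it. RELB, a subunit of NF-κB, was at 4.01 without drug and 6.30, 6.21 and 6.33 with the drugs. TNFAIP3 (A20), an inhibitor of the pathway, was at -2.94 and then -0.54, -0.77 and -0.49. NFKBIA (IκBα), which holds NF-κB in the cytoplasm, was at 4.01 and then 5.53, 5.48 and 5.58. IRF7, an interferon regulatory factor, was at 4.14 and then 6.14, 6.15 and 6.35. The 4 probes of ATF3 disagreed. A_33_P3214096 differed from mock by -0.48, -0.59 and -0.42, and the others were higher with each drug. The median difference of the list was 0.57, 0.50 and 0.52.

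Of 22 further genes of epithelial inflammation, 5 (ICAM1, BIRC3, LCN2, CSF3 and IL32) were induced by all 3 drugs, beside 5.27% of all named genes. None was reduced, but most had a mock level under -1, from which that call is not made. ICAM1, an adhesion molecule for leukocytes, was at -0.30 without drug and 2.01, 1.92 and 2.12 with the drugs. IL32, a cytokine, was at -0.75 and then 2.41, 2.29 and 2.76, and BIRC3, an inhibitor of apoptosis, was at 0.44 and then 2.65, 2.47 and 2.85. CSF3, the growth factor of neutrophils, was at least 13.4-fold, 16.7-fold and 17.0-fold higher. Over the 22, the median difference was 0.73, 0.83 and 0.71, or 0.71, 0.70 and 0.67 with genes at their lower bounds, which left the medians of the other lists as given. As for the 10 chemokines, these counts describe 1 array per condition.

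**Figure D5:**
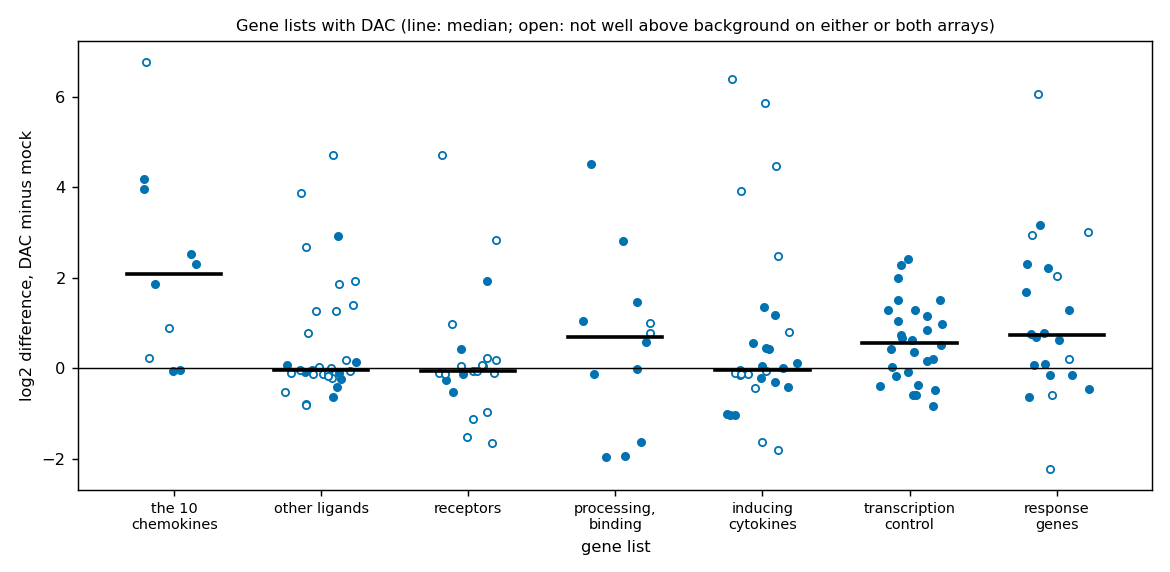
Log2 difference between the DAC and mock arrays (y axis) for each gene of the 10 chemokines and of 6 related lists (x axis), with lines for medians and open points for genes not well above background on either or both arrays. The median is 2.08 for the 10 chemokines, 0.57 for transcription control and -0.04 for the other ligands.

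Markers of other cell types were also compared, since leukocytes make several of these chemokines. Of 8 leukocyte and stromal markers reported, CD14 and VWF were induced by all 3 drugs, beside 5.27% of all named genes. The summed level of the 8, in units of the 75th percentile, was 3.16 on the mock array and 6.94, 6.79 and 7.24 with the drugs. CD14, a monocyte marker, was at -2.27 without drug and -0.58, -0.57 and -0.56 with the drugs, and VWF, an endothelial marker, was at -2.07 and then 0.81, 0.75 and 0.86, though a second probe for VWF differed from mock by -0.12 to -0.01. PTPRC, which marks all leukocytes, was at -1.48 and then -1.79, -1.75 and -1.64 with its brightest probe, while another of its probes went from -6.20, not well above background, to -2.84, -3.40 and -2.74. PECAM1 was not well above background without drug and reached -1.21, -1.13 and -1.11 with the drugs, and was therefore not called. COL1A1, the brightest of the 8, was at 0.99 and then 1.82, 1.76 and 1.89, under 2-fold higher. CD3E, a T cell marker, was not well above background except with OR-2100. The cells were a cultured line, and the part of these markers in the chemokine values was not tested.

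The epithelial markers did not move as a set. EPCAM, CDH1 and CLDN4 were reduced by all 3 drugs, and none of the 6 was induced, beside 5.21% and 5.27% of all named genes. KRT8, KRT18 and KRT19 were higher with each drug by 0.31 to 0.59, under 2-fold. A further probe for KRT8 differed from mock by -0.18 to -0.07. EPCAM was at 6.81 without drug and 5.32, 5.29 and 5.36 with the drugs, and the summed level of the 6 was 1554 on the mock array and 1735, 1669 and 1641 with the drugs.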

How the data were processed

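Mock-treated HML58-3 cells and those given DAC, OR-2003 or OR-2100 were measured on 1 Agilent SurePrint G3 one-colour array per condition. The authors deposited the intensity of every spot from Feature Extraction 12.1.0.3, with the local background subtracted and arrays not scaled to each other. A series table held the same values in all 62976 spots of each array.

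From there, control spots and spots marked as outliers (52 to 98 gene spots per array) were removed, log2 intensities were averaged over spots of the same probe, and each array was shifted so that its gene probes had their 75th percentile at 0. Background limits lay at levels of -4.55 to -4.29. Gene names came from a RefSeq table through accessions, for 34892 probes. The value of a gene is that of its probe with the highest mean. The thresholds follow the methods of the study. Where the mock probe was not well above background, a lower bound was set against the background limit of the mock array, the dimmest signal that passed as well above background. The 10 chemokines and the gene lists were chosen with earlier results of these data known. The genes named are all 10 chemokines, 11 fixed genes, and up to 4 genes per list with the largest mean difference among those called with all 3 drugs. Other genes called with all 3 drugs are named in the counts, and some genes of the lists are not reported here.

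The 11 alternatives were the series table, normexp (offset 50), quantile normalization, the percentile of probes well above background, median scaling, values raised to the background limit, the average over a gene's probes, marked spots kept, thresholds of 4-fold or a level of 0, and counting at any level. Normexp was run on the median intensity of a spot, since the mean intensity was not used here. Counting was tested on simulated data. Motifs were searched in RefSeq promoters of GRCh38.p14, and aligned stretches were compared globally. Python 3.11.15, numpy 2.4.6, pandas 2.3.3, R 4.3.3 and limma 3.58.1 were used. Methylation arrays were not analysed here.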

Additional observations from a re-analysis of the deposited data

How the results depend on the processing

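Leaving out a replicate could not be done with 1 array per condition. No paired analysis was possible because no group holds more than 1 array. The number of induced chemokines, 5 for each drug, stayed within 1.5 times under the other alternatives and became 2 with DAC, 2 with OR-2003 and 3 with OR-2100 when the percentile was taken over probes well above background, where the level of -1 lies among brighter genes by construction. The median difference of the 10 chemokines on the log2 scale, in the order DAC, OR-2003 and OR-2100, was 2.28, 2.30 and 2.61 with that percentile, 1.02, 0.99 and 1.22 with normexp, and 2.24, 2.26 and 2.50 when a gene was taken as the average over its probes. It was 1.96 with DAC and 1.87 with OR-2003 under median scaling. The cause was not tested. No difference called in a gene turned its sign. The median of all named genes also moved with the scaling, from -0.11, -0.09 and -0.23 to 0.08, 0.11 and -0.01 with the percentile of probes well above background and to -0.23, -0.32 and -0.32 under median scaling, so that differences as small as those of CXCL5 and CXCL16 have no settled sign. Signal over background limited CXCL10 and CCL2 on all arrays and CCL20 on the mock array.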
